A study of Mus musculus with 6 samples.

Results

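The type I interferon response genes are 41 mouse genes taken from a list of the transcription factors, nucleic acid sensors and antiviral effectors that this cytokine family induces, and they were examined here in cultured tail fibroblasts. Of these 41 genes, 39 had a probe that could be named, and all 39 were well above background on all 6 arrays, among 23058 genes tested in all. Mx1 and Mx2 matched no named probe and were not analysed here. Cells of 3 groups with 2 arrays each were compared, all of the C57BL/6 strain and all carrying the LH2F/F allele with CAG-Cre, the control group included. The no.1 cells were in medium with tamoxifen for 24 h, the no.2 cells were in medium without tamoxifen after a 24 h tamoxifen treatment, and the control cells were in medium without tamoxifen. CAG is a broadly active promoter, LH2 is lysyl hydroxylase 2, a collagen-modifying enzyme encoded by Plod2, and the ages and number of the animals are not given in the labels.

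Type I interferons are secreted proteins that bind the receptor made of Ifnar1 and Ifnar2 and act through the kinases Jak1 and Tyk2. Their activity leads to the complex ISGF3, which holds Stat2 and Irf9 and binds the interferon-stimulated response element in the promoters of its target genes. Fibroblasts are a classical source of interferon beta, and their target genes encode proteins that sense foreign nucleic acid, block viral translation, degrade RNA or tether virus particles.

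Separate cultures behind the 2 arrays of a group are not stated in the labels, so a p-value here measures only the spread between these arrays, and that spread may be technical. The labels give 24 h of tamoxifen for all 4 treated arrays, while the names of their deposited data carry 24 h for replicate 1 and 48 h for replicate 2 in both no.1 and no.2, and 0 h for both controls. On the slide, row 1 held both controls and row 2 held all treated arrays, so row and treatment cannot be told apart. The signal at the 75th percentile was 95.9 and 85.1 in no.1, against 55.1 and 56.9 in no.2 and 34.2 and 33.7 in control. Plod2, the gene deleted by design, had log2 levels relative to that percentile of -1.60 and -2.31 in no.1, -2.05 and -2.73 in no.2, and 0.30 and 0.05 in control. By this scaling it was below both controls on all 4 treated arrays. Its signal was 31.8 on the first no.1 array and 42.1 and 34.9 in control. The spike-ins had a mean log2 signal of 8.23 on that array and 8.70 and 8.69 in control. Relative to the spike-ins, that array was therefore not below the controls. The fibroblast label was checked on 12 markers, of which 11, Col1a1, Vim and Thy1 included, exceeded background on every array and Lum did so on none.

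Promoter letters are shown for 9 genes, chosen from those described below that hold the core letters of the element that ISGF3 is known to bind. Stat2, Oas3, Trim30a and Gbp3 also hold a match before the start and are not shown. The search used the letters GAAANNGAAA on both strands, which read TTTCNNTTTC where the match lies on the opposite strand, over windows of 250 bases before to 50 bases after each gene start in the RefSeq promoter table of GRCm38.p6. Overlapping matches were all kept, and capitals mark every base inside a match. Each line gives a stretch that lies wholly before the start, on the strand of the gene, 5′ to 3′.
Isg15, chr4:156200855-156200916, minus strand: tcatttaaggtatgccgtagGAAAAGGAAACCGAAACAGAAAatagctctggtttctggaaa
Ifit1, chr19:34640765-34640833, plus strand: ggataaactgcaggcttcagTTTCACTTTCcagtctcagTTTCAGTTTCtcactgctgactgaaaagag
Ifit3, chr19:34583353-34583436, plus strand: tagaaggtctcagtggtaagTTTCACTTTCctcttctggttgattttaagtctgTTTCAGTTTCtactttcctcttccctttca
Oas1a, chr5:120907526-120907565, minus strand: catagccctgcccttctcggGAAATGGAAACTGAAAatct
Rsad2, chr12:26456543-26456592, minus strand: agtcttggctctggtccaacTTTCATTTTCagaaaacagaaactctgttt
Bst2, chr8:71537567-71537622, minus strand: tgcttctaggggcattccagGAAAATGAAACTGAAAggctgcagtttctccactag
Gbp2, chr3:142620584-142620633, plus strand: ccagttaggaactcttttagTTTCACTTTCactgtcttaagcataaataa
Igtp, chr11:58199502-58199551, plus strand: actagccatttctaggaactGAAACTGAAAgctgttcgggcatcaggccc
Irgm1, chr11:48871421-48871470, minus strand: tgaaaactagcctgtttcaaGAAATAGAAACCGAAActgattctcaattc

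Of the 39 measured genes, 29 had a promoter in the table, and 15 of these (51.7%) held at least 1 match. Over all 27025 genes with a promoter the share was 3.99%. Isg15 held 3 overlapping matches, while Ifit1 and Ifit3 each held 2 separate ones. The windows of Irf7, Irf9, Tlr3, Trim25, Ifit2, Oasl2, Cmpk2, Samhd1, Ifi35 and Xaf1, among others, did not contain these letters. These are matches of letters and not measured binding.

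One array stood apart for nearly the whole set. Levels are given as log2 of the processed signal relative to the 75th percentile of the same array, so a level is relative within its array. The median level of the 39 genes was 1.60 and 4.47 in no.1, 4.33 and 4.69 in no.2, and 4.66 and 4.58 in control. Only the first no.1 array was low, and the second lay between the no.2 arrays. In such bulk samples, fewer cells of a type and less RNA per cell cannot be told apart.

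**Figure D1:**
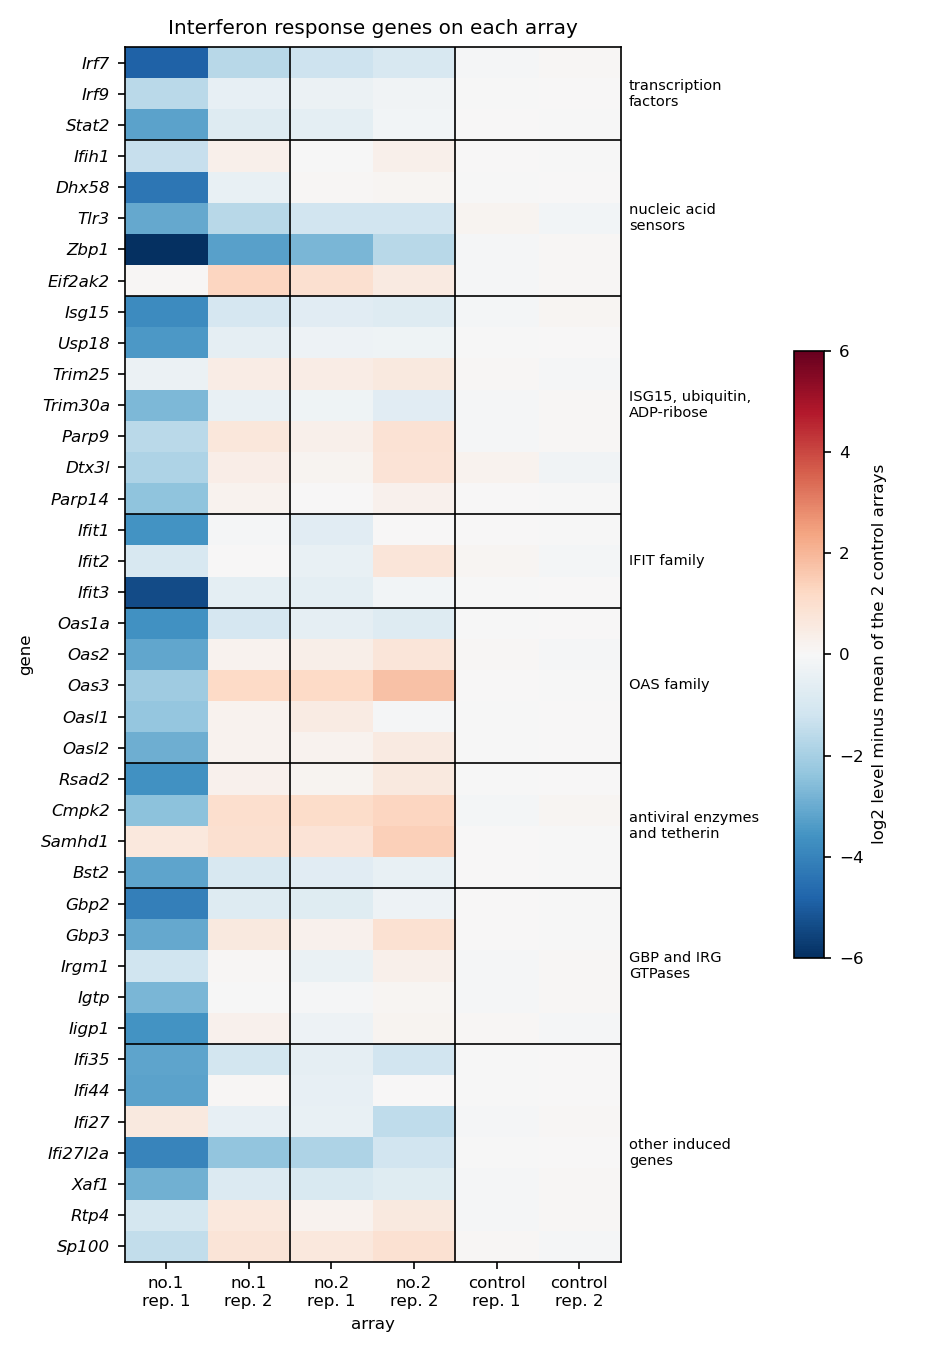
Log2 level of each of the 39 interferon response genes (rows, by role) on each array (columns), minus the mean of the 2 control arrays, with blue lower and red higher. The no.1 replicate 1 column is the lowest of the 6 in 36 rows.

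No.1 replicate 1 was the lowest of the 6 arrays for 36 of the 39 genes, against 25.3% of all genes tested. It lay at least 2-fold below the lowest of the other 5 arrays for 32 genes (2.98% of all genes) and at least 4-fold below it for 25 genes (0.759% of all genes). Of the other arrays, no.2 replicate 2 lay at least 2-fold below the rest for 1 gene, Ifi27, and the remaining 4 for none. The 3 genes for which no.1 replicate 1 was not the lowest were Ifi27, Samhd1 and Eif2ak2. Trim25, Ifit2, Irgm1 and Rtp4 were lowest there by less than 2-fold.

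Set against its own replicate, no.1 replicate 1 was at least 2-fold lower for 35 of the 39 genes (5.12% of all genes) and at least 4-fold lower for 28 (1.18% of all genes). It was at least 2-fold higher for 1, Ifi27 (1.39% of all genes). The median difference, replicate 1 minus replicate 2, was -2.55 in no.1, where all genes had a median of 0.02 and a robust SD of 0.42. It was -0.28 in no.2, with 2 genes at least 2-fold lower (3.48% of all genes), and -0.06 in control, with 0 genes (1.42% of all genes). The second no.1 array differed from the 2 no.2 arrays by medians of -0.02 and -0.27. With 1 array on each side there is no test, so these differences are a description.

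**Figure D2:**
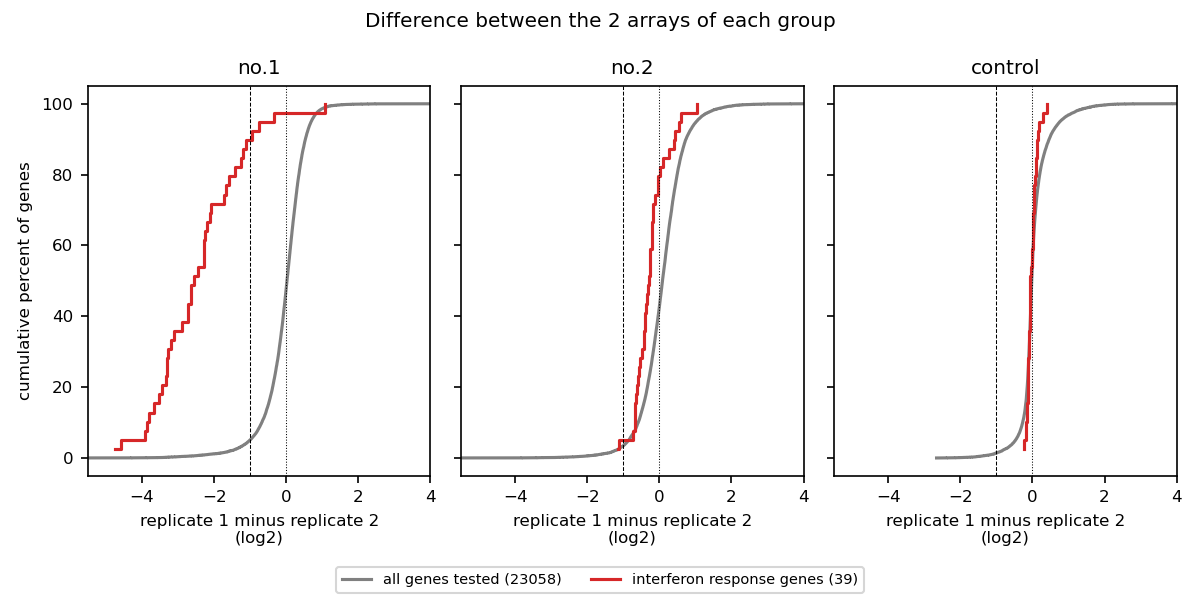
Cumulative percent of genes (vertical axis) by the log2 difference of replicate 1 minus replicate 2 (horizontal axis) in no.1, no.2 and control, for the 39 interferon response genes (red) and all 23058 genes tested (grey), with the dashed line at 2-fold lower. The red curve lies far left of the grey one in no.1, with a median of -2.55, and near it in no.2 and control.

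The 3 transcription factors were all low on no.1 replicate 1. Irf7, the factor that amplifies interferon production, had levels of 4.78 and 7.98 in no.1, 8.39 and 8.66 in no.2, and 9.58 and 9.69 in control. All 4 treated arrays were below both controls, with the first no.1 array farthest. Stat2, a subunit of ISGF3, read 2.22 and 4.66 in no.1, 4.85 and 5.24 in no.2, and 5.47 and 5.38 in control. Irf9, the DNA-binding subunit of ISGF3, read 2.93 and 4.04 in no.1, 4.20 and 4.33 in no.2, and 4.50 and 4.56 in control. By the probes used, both genes gave the same order of groups, with none overlapping. Each gene had a second probe, well above background on every array, by which no.2 and control overlapped. Both no.1 arrays were below no.2 and control by these second probes too. The difference of the no.1 arrays, first minus second, lay between -3.20 (Irf7) and -1.11 (Irf9).

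Among the 5 nucleic acid sensors the sizes differed widely. Zbp1, a sensor of left-handed nucleic acid that can trigger cell death, had levels of -1.85 and 2.74 in no.1, 3.25 and 4.36 in no.2, and 5.92 and 6.08 in control. Dhx58, a helicase of the RIG-I family, read -0.38 and 3.48 in no.1, 4.02 and 4.07 in no.2, and 3.93 and 3.96 in control. Zbp1 was thus below control on all 4 treated arrays, while Dhx58 was far below the other arrays on the first no.1 array alone. Tlr3, the endosomal receptor for double-stranded RNA, read -4.15 and -2.74 in no.1, -2.21 and -2.24 in no.2, and -0.94 and -1.23 in control. By this probe the groups were again in the order no.1, no.2, control without overlap. By a second Tlr3 probe, well above background on 4 of the 6 arrays, they overlapped. It read -5.83 and -2.44 in no.1, -3.02 and -2.10 in no.2, and -2.54 and -3.74 in control. Eif2ak2, the kinase PKR that halts translation, read 1.60 and 2.81 in no.1, 2.49 and 2.06 in no.2, and 1.47 and 1.57 in control, so the first no.1 array lay just above both controls and all 4 treated arrays above them. Ifih1, the RNA sensor MDA5, gave a difference of -1.72 between the no.1 arrays.

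The genes of ISG15, ubiquitin and ADP-ribose conjugation were low on the first no.1 array in 7 of 7 cases, in 6 of them by at least 2-fold below the other 5 arrays. Isg15, the ubiquitin-like protein attached to other proteins, had levels of 6.50 and 9.23 in no.1, 9.58 and 9.48 in no.2, and 10.14 and 10.37 in control. Usp18, the protease that removes ISG15, read 3.35 and 6.23 in no.1, 6.46 and 6.50 in no.2, and 6.74 and 6.81 in control. In both genes the groups did not overlap and the second no.1 array lay near the no.2 arrays. Trim30a, a tripartite motif protein, read 1.04 and 3.29 in no.1, 3.47 and 3.06 in no.2, and 3.63 and 3.82 in control. Trim25, the ubiquitin ligase that acts on RIG-I, read 5.10 and 5.86 in no.1, 5.87 and 6.04 in no.2, and 5.50 and 5.37 in control, and its low reading was the smallest of the 7, -0.76 between the no.1 arrays. Parp9, its partner Dtx3l and Parp14, of the ADP-ribosylation system, gave differences of -2.27, -2.27 and -2.65 between the no.1 arrays.

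The IFIT proteins bind foreign RNA and block its translation. Ifit3 had levels of 1.54 and 6.29 in no.1, 6.32 and 6.73 in no.2, and 6.85 and 6.94 in control. Its difference between the no.1 arrays, -4.75, was the largest of the 39 genes. Ifit1 read 0.82 and 4.34 in no.1, 3.70 and 4.43 in no.2, and 4.39 and 4.39 in control. Ifit2 read -0.66 and 0.30 in no.1, -0.15 and 1.00 in no.2, and 0.38 and 0.19 in control. The 3 genes share the first no.1 array as the lowest, but for Ifit2 the gap to the next array was -0.51, and the no.2 arrays differed from each other by -1.16.

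The OAS proteins make 2′-5′-linked oligoadenylate, which activates RNase L, and Oasl1 and Oasl2 are related proteins. All 5 genes of the family were at least 2-fold below the other 5 arrays on no.1 replicate 1. Oas1a read 4.57 and 7.21 in no.1, 7.69 and 7.43 in no.2, and 8.18 and 8.25 in control. Oas2 read 0.86 and 4.18 in no.1, 4.30 and 4.70 in no.2, and 4.04 and 3.88 in control. Oas1a was below control on all 4 treated arrays, while for Oas2 only the first no.1 array was below. Oas3 read -1.57 and 1.76 in no.1, 1.76 and 2.34 in no.2, and 0.60 and 0.57 in control, so 3 treated arrays were above both controls and 1 was below. Oasl2 read 2.92 and 6.03 in no.1, 6.07 and 6.38 in no.2, and 5.84 and 5.84 in control, and Oasl1 gave a difference of -2.55 between the no.1 arrays.

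Of the antiviral enzymes, Rsad2 (viperin) and Cmpk2, which make and supply an antiviral nucleotide, were low on no.1 replicate 1 alone by the probes used. Rsad2 read -0.62 and 3.30 in no.1, 3.17 and 3.60 in no.2, and 3.0 and 3.04 in control. Cmpk2 read -0.37 and 3.09 in no.1, 3.21 and 3.41 in no.2, and 1.99 and 2.22 in control. By these probes, the treated arrays other than the first no.1 array were above both controls for both genes. A second Rsad2 probe, well above background on all 6 arrays, was below both controls on all 4 treated arrays. It read -2.99 and 0.76 in no.1, 1.06 and 0.98 in no.2, and 1.61 and 1.81 in control. Bst2, tetherin, which holds budding virus at the cell surface, read 5.79 and 7.98 in no.1, 8.29 and 8.49 in no.2, and 8.98 and 8.94 in control. Bst2 was below both controls on all 4 treated arrays. Samhd1, which hydrolyses nucleotides, read 4.14 and 4.47 in no.1, 4.33 and 4.95 in no.2, and 3.52 and 3.50 in control. Samhd1 was therefore above both controls on all 4 treated arrays, and the no.1 arrays differed by -0.33, the smallest difference among the 39 genes.

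The GBP and IRG GTPases act on membranes that enclose intracellular pathogens. Gbp2 read 0.52 and 3.83 in no.1, 3.91 and 4.33 in no.2, and 4.66 and 4.58 in control. Igtp read 2.58 and 5.31 in no.1, 5.23 and 5.43 in no.2, and 5.25 and 5.39 in control. Iigp1 read 1.48 and 5.30 in no.1, 4.77 and 5.24 in no.2, and 5.11 and 5.00 in control. For Gbp2 all 4 treated arrays were below both controls. For Igtp and Iigp1 the other 5 arrays lay close together and the first no.1 array stood alone. Irgm1, a regulator of the other IRG proteins, read 3.76 and 5.03 in no.1, 4.59 and 5.26 in no.2, and 4.92 and 5.03 in control, a smaller gap of -0.82 to the next array, and its promoter holds 2 overlapping matches. For Gbp3 the difference between the no.1 arrays was -3.67.

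The remaining induced genes included the exception in direction. Ifi27l2a, a small mitochondrial protein gene, read 5.35 and 6.94 in no.1, 7.47 and 8.14 in no.2, and 9.28 and 9.34 in control. Its second probe, dimmer but well above background on all 6 arrays, put no.2 above control. That probe read -3.10 and -1.49 in no.1, -1.19 and -1.22 in no.2, and -1.45 and -1.37 in control. Ifi27 read 6.79 and 5.72 in no.1, 5.75 and 4.69 in no.2, and 6.14 and 6.26 in control. These 2 genes are neighbours on chromosome 12 in the RefSeq table of GRCm38.p6, and replicate 1 of no.1 was the lowest array for Ifi27l2a and the highest for Ifi27, the second probe of Ifi27 differing by 1.23 in the same direction as the first by 1.07. Ifi35, which binds other interferon-induced proteins, read 4.53 and 6.62 in no.1, 7.18 and 6.56 in no.2, and 7.68 and 7.75 in control. Xaf1, which antagonises the apoptosis inhibitor XIAP, read 2.41 and 4.51 in no.1, 4.42 and 4.60 in no.2, and 5.23 and 5.40 in control. Both were below control on all 4 treated arrays. Ifi44, Rtp4 and Sp100, the last a nuclear body protein, had differences of -3.27, -1.66 and -2.28 between the no.1 arrays.

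Neighbouring genes of the set did not all move alike. Of the 7 pairs with no other protein-coding gene between them in that table, the 3 pairs Parp14 with Dtx3l, Dtx3l with Parp9 and Oas2 with Oas3 differed between the no.1 arrays by similar amounts (-2.65, -2.27, -2.27, -3.32 and -3.33 for Parp14, Dtx3l, Parp9, Oas2 and Oas3). Rsad2 with Cmpk2 and Oasl2 with Oasl1 were likewise all lower. Ifit2 with Ifit3 differed in size, -0.96 against -4.75, and Ifi27l2a with Ifi27 in sign.

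Several probes spoke for the same gene in 17 cases. Of all 58 probes of the set, 54 were well above background on all 6 arrays, 52 of these were lower on no.1 replicate 1 than on replicate 2, and 47 by at least 2-fold. In 16 of the 17 genes every probe read lower there, the dim probes included, the exception being Ifi27. Without the letters of the probes, which were not used here, signal from near-identical copies, such as Ifit3b for Ifit3 and Oas1g for Oas1a, cannot be told apart from that of the gene named.

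The comparison of no.1 with no.2 is the one named in the study's design, and it asks how cells kept in tamoxifen differed from cells taken out of it. No gene of the set passed the test, and most genes of the set were low on 1 of the 2 no.1 arrays only. By limma with Benjamini-Hochberg adjustment over all genes, 0 of 39 were called, as were 0% of all genes, with 3 genes of the set (Tlr3, Zbp1 and Ifi27l2a) at an unadjusted p under 0.05 and a lowest adjusted p of 0.282. On the log2 scale 38 of the 39 genes lay below 0, and their median was -1.38 where all genes had -0.01. The arrays of no.1 lay wholly below those of no.2 for 17 genes (25.4% of all genes) and wholly above for 0 (22.5% of all genes). Zbp1 gave -3.35 (SE 1.37, adjusted p = 0.301) and Ifit3 gave -2.62 (SE 1.38, adjusted p = 0.366). Without no.1 replicate 1 the median was -0.13 and 0 genes were called (0% of all genes). Without no.1 replicate 2, where the lone array is assumed to vary like the other groups, the median was -2.60 and 19 genes were called lower (0.507% of all genes).

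In no.1 against control, 6 genes of the set fell and none rose. They were Zbp1 with a log2 fold change of -5.55 (SE 1.37, adjusted p = 0.0197), Irf7 with -3.25 (SE 0.94, adjusted p = 0.0323), Ifi27l2a with -3.16 (SE 0.53, adjusted p = 0.00671), Tlr3 with -2.36 (SE 0.45, adjusted p = 0.00939), Ifi35 with -2.14 (SE 0.65, adjusted p = 0.0375) and Bst2 with -2.08 (SE 0.66, adjusted p = 0.0424). Of all genes 47.8% were called, 26.4% lower and 21.4% higher, so 6 of 39 is a smaller share than the background. The median over the set was -1.44, against -0.12 over all genes, and 35 genes lay below 0. Isg15 gave -2.39 (SE 0.81, adjusted p = 0.0511) and Ifit3 -2.98 (SE 1.38, adjusted p = 0.119). The arrays did not overlap for 17 genes below (44.7% of all genes) and 2 above (36.7%), the last being Eif2ak2 and Samhd1.

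These calls moved with the first no.1 array. Without it 9 genes were called, 7 lower and 2 higher (25.3% of all genes in either direction), and the median was 0.01. Without the second no.1 array 33 were called, all lower (39.3% of all genes), with a median of -2.92. Of the 6 genes named, Zbp1, Irf7, Ifi27l2a, Tlr3 and Bst2 were called without the first array too, and Ifi35 was not (-1.10, adjusted p = 0.0693). Isg15 and Oas1a were then called lower, at -1.03 (adjusted p = 0.0401) and -1.01 (adjusted p = 0.0432), and Eif2ak2 and Cmpk2 higher, at 1.29 (adjusted p = 0.0378) and 0.99 (adjusted p = 0.0471). The direction of the calls depended on the scaling. With each array scaled to its spike-ins, on which all genes had a median of 1.82, 8 genes of the set were called, 7 higher and 1, Zbp1, lower (84.1% of all genes in either direction). With normexp 3 were lower and 1 higher (70.0% of all genes in either direction). Scaled to the median probe 8 were lower and 2 higher (47.1% of all genes). With quantile normalization Zbp1, Ifi27l2a and Tlr3 passed, while Irf7, Ifi35 and Bst2 did not (adjusted p = 0.0816, 0.101 and 0.137). These last 3 also lost their call without any 1 of the no.2 or control arrays (adjusted p between 0.0707 and 0.107), as did Zbp1 without either control array (adjusted p = 0.0532 and 0.0593), where 2 genes of the set were called. With the mean of its 2 probes, of which the second was well above background on 4 of the 6 arrays, Tlr3 gave -1.68 (adjusted p = 0.111).

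In no.2 against control, 1 gene of the set rose and none fell. Samhd1 gave 1.14 (SE 0.27, adjusted p = 0.0292), and both no.2 arrays were above both controls. Of all genes 28.3% were called, 12.1% higher and 16.2% lower. The median over the set was -0.05, against -0.10 over all genes. Zbp1 gave -2.20 (SE 1.37, adjusted p = 0.255), Ifi27l2a -1.51 (SE 0.53, adjusted p = 0.0777), Irf7 -1.11 (SE 0.94, adjusted p = 0.393) and Oas3 1.46 (SE 0.99, adjusted p = 0.289). By the second probe of Ifi27l2a, both no.2 arrays were above both controls. The no.2 arrays lay wholly below control for 16 genes (41.3% of all genes) and wholly above for 14 (33.2%). The spread of the 3 groups was pooled. With only no.2 and control in the fit 9 genes were called, 5 lower and 4 higher. Of all genes 25.6% were called there in either direction, so this share was near the background. Among the 9 were Irf7, Tlr3, Zbp1, Ifi27l2a and Xaf1 lower and Oas3, Cmpk2 and Samhd1 higher. Without control replicate 1 or 2, or without no.2 replicate 2, the log2 fold change of Samhd1 was 1.15, 1.13 and 0.83. Samhd1 was then no longer called, and fewer of all genes were called too. These fits left 1 array in a group.

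**Figure D3:**
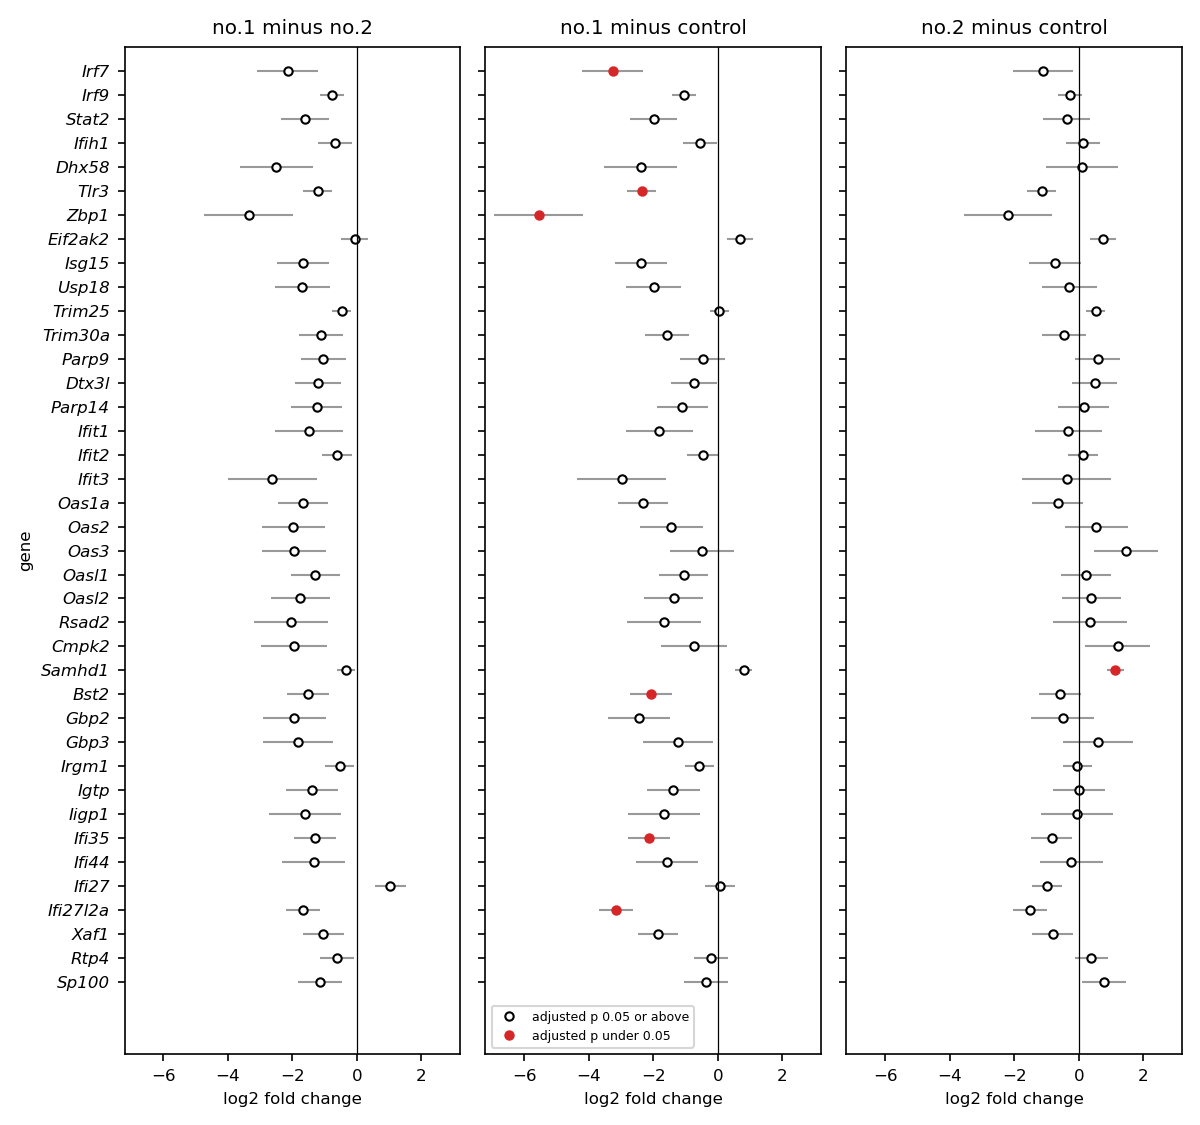
Log2 fold change with its SE (bars) for the 39 interferon response genes in no.1 minus no.2, no.1 minus control and no.2 minus control, with filled red points for genes called by limma. In the first panel 38 of 39 points lie left of 0 and none is filled, while 6 are filled in the second and 1, Samhd1, in the third.

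By the probe used for each gene, all 4 treated arrays were below both controls for 15 genes of the set (36.5% of all genes). They were above both for 2, Eif2ak2 and Samhd1 (28.2% of all genes). The comparisons of no.1 and no.2 with control share the control arrays and are not independent of each other.

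Other genes of the interferon system were read from lists outside the set. Of 47 measured genes on a list of further interferon-induced genes, no.1 replicate 1 was the lowest array for 44 and at least 2-fold below the other 5 for 39, of which 36 were well above background on that array. Ifit3b read -0.31 and 4.68 in no.1, 4.80 and 5.07 in no.2, and 4.97 and 4.99 in control. Slfn5 read -6.36 and -1.76 in no.1, -1.71 and -0.91 in no.2, and 1.93 and 2.07 in control. Both were low on the first no.1 array, and Slfn5, which was not well above background there, was below control on all 4 treated arrays. Against control, 13 of the 47 fell and 1 rose in no.1, where 26.4% of all genes were lower and 21.4% higher, so the share that fell was near the background. The log2 fold changes were -3.13 for the chemokine gene Ccl5 (SE 0.61, adjusted p = 0.00991) and -2.25 for the gene of the secreted Lgals3bp (SE 0.44, adjusted p = 0.010). The 1 that rose was Pnpt1, at 0.78 (SE 0.26, adjusted p = 0.0477). Without no.1 replicate 1, a setting chosen for these lists after the data were seen, 11 of the 47 were lower and 6 higher (25.3% of all genes in either direction), and the list median was -0.24. Slfn5, read from the second no.1 array alone, gave -3.76 there (adjusted p = 0.0160). In no.2 none of the 47 passed. Over all 52 genes of this list, measured or not, 43 had a promoter, and 20 of these genes (46.5%) held a match to GAAANNGAAA.

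The genes upstream of the response mostly did not lie 2-fold below the other arrays on no.1 replicate 1, though many were lowest there. At least 2-fold below the other 5 arrays (2.98% of all genes) were 0 of 16 genes of sensing and induction and 1 of 4 further interferon regulatory factors. So were 1 of 12 negative regulators and 1 of 4 interferon genes. That array was the lowest of the 6, by any amount, for 8, 2, 6 and 2 genes of these 4 lists in turn, against 25.3% of all genes. The 5 receptor subunits and the kinase Jak1 were within the range of the other arrays or near it, Ifnar1 for example at 3.18 and 3.50 in no.1, 2.95 and 2.77 in no.2, and 3.83 and 3.43 in control. Irf1 read 3.19 and 4.65 in no.1, 4.84 and 4.70 in no.2, and 4.97 and 5.04 in control. Trex1, a DNase that removes cytosolic DNA, read 3.11 and 5.08 in no.1, 5.76 and 5.30 in no.2, and 6.73 and 6.74 in control.

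Interferon beta followed the same pattern at a low signal. Ifnb1 had levels of -4.91 and -0.73 in no.1, -1.10 and -0.46 in no.2, and 0.11 and 0.10 in control. Its signal was 3.19 and 51.3 in no.1, 25.6 and 41.4 in no.2, and 36.9 and 36.1 in control. The probe was well above background on 5 arrays and not on no.1 replicate 1. No contrast of Ifnb1 passed, with a lowest adjusted p of 0.0936.

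Over the whole of these lists 93 of 109 genes were measured. In no.1 against control 24 fell and 6 rose (26.4% and 21.4% of all genes), so the share that fell was near the background. In no.2 against control 1 fell and 2 rose (16.2% and 12.1% of all genes). Without no.1 replicate 1, 16 were called lower and 11 higher in no.1 (25.3% of all genes in either direction). Cgas, the cytosolic DNA sensor, rose in both groups. Its log2 fold change was 1.16 in no.1 (SE 0.19, adjusted p = 0.00650), against a change of 0.75 for no.2 cells (SE 0.19, adjusted p = 0.0357). Rnaseh2b, a subunit of the enzyme that removes ribonucleotides from DNA, rose by 1.69 in no.1 (SE 0.22, adjusted p = 0.00378) and also, by 1.02, in no.2 (SE 0.22, adjusted p = 0.0230). Ikbke, a kinase that activates Irf3 and Irf7, fell, with log2 fold changes of -1.86 in no.1 (SE 0.33, adjusted p = 0.00790) and of -1.50 for no.2 cells (SE 0.33, adjusted p = 0.0242). Stat3 fell by 1.09 on the log2 scale in no.1 (SE 0.29, adjusted p = 0.0248), and Jak2 rose there by 0.83 (SE 0.26, adjusted p = 0.0398). Neither passed without no.1 replicate 1 (adjusted p = 0.0794 and 0.156).

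**Figure D4:**
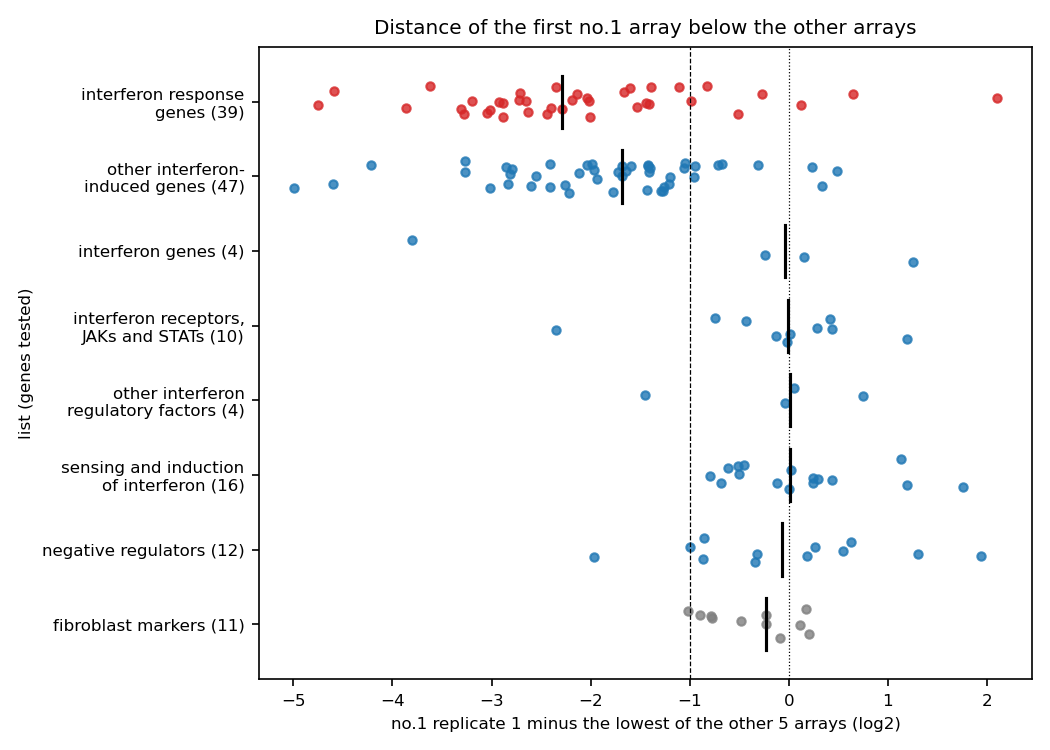
Log2 distance of no.1 replicate 1 from the lowest of the other 5 arrays (horizontal axis) for each gene measured in each list (points), with the list median (black bar), the dotted line at 0 and the dashed line at 2-fold below. The interferon response genes and the other interferon-induced genes lie mostly left of the dashed line, with 32 of 39 and 39 of 47 beyond it, and the upstream lists lie around 0.

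Of the 175 genes in the whole table that were at least 4-fold below the other 5 arrays on no.1 replicate 1, 114 were well above background on that array and 135 had a symbol. Among those 135, 25 were of the set and 20 more were on the lists above, 33.3% together.

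Markers of other cell types gave these values on the same arrays. Of 13 macrophage and dendritic cell markers, 5 exceeded background clearly on every array and 7 on none, Ptprc, Adgre1 and Lyz2 among them. Their summed level was 7.73 and 8.10 in no.1, 8.16 and 7.93 in no.2, and 8.26 and 8.18 in control, most of it from the probe named for Siglech. Of 6 smooth muscle and pericyte markers 4 were well above background on all arrays, and their summed level was 9.71 and 8.80 in no.1, 9.11 and 9.10 in no.2, and 9.02 and 9.06 in control, the highest on no.1 replicate 1. Nearly all of this sum came from Acta2 and Cnn1, which were both highest on that array, at 9.35 and 7.52. Myh11 and Cspg4 were below both controls there. Des, not well above background there, was lowest on that array, and Rgs5 was well above background on none. The fibroblast markers summed to 10.97 and 11.03 in no.1, 11.37 and 11.15 in no.2, and 12.29 and 12.37 in control. S100a4 gave the largest part of this sum on every array. It read 10.09 and 10.12 in no.1, 10.50 and 9.89 in no.2, and 11.80 and 11.89 in control. Vim read 8.12 and 8.04 in no.1, 8.02 and 8.01 in no.2, and 8.08 and 8.13 in control. Of 11 fibroblast markers tested against control, 6 were called lower in no.1 (26.4% of all genes) and 4 in no.2 (16.2%), and none higher. Of 7 T, B and NK cell markers 2 were well above background on all arrays, of 7 keratinocyte markers 2, and of 6 endothelial markers 0. The part of the smooth muscle markers in the low interferon response on no.1 replicate 1 was not tested.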

How the data were processed

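Cy3-labelled RNA was read on 6 Agilent 1-colour arrays on 1 slide, per the labels' protocols and the file headers. The deposited scanner values, used here, are intensity from Agilent Feature Extraction. Its version is 12.1.1.1 per the file headers and 9.5.1.1 per the submitters' processing notes. These values are background-subtracted within each array and not scaled between arrays. The headers name the mouse build mm9, of which no coordinate was used. The series' value table, deposited by the authors as intensity, was an alternative. Its median was 5.16 on every array. It lay within 1% of the quantile-normalized values for at least 99.97% of probes on each array, so these alternatives are nearly the same.

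Here log2 of the processed signal minus each array's 75th percentile was used. Spots of a probe were averaged without those flagged as outliers, and accessions were named through the RefSeq table of GRCm38.p6, where 32994 of 56605 probes (58.3%) gained a symbol. The probe of highest mean stood for a gene. Tested were genes that some group held well above background on both its arrays, with limma 3.58.1 in R 4.3.3 (package data.table, version 1.17.8), 1 mean per group over 6 arrays and 3 residual degrees of freedom. A call needed an adjusted p (Benjamini-Hochberg) under 0.05. The fit was tested on simulated data. No probe was saturated, and the number of arrays limits the precision. The files held no mean-signal column, so the normexp alternative (offset 50) used the median signal. Other alternatives were quantile, median-probe and spike-in scaling, the filters on dim probes, the probe rule, the replicate block and leaving out each array.

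The genes, lists and tests were chosen with earlier results of these data known. Genes named were up to 4 per role and 3 per list by lowest adjusted p. Ifit3b and others with a level far below the rest on one array were named after their values were seen, as was each remaining gene of the set, so that all 39 are accounted for. A result on 1 gene of the lists outside the set is not reported here.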

Additional observations from a re-analysis of the deposited data

Results flagged for a closer look

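Dhx58 was picked out because the 2 treated groups lay on opposite sides of control on every array, below on both no.1 arrays and above on both no.2 arrays. The no.1 mean was 2.40 below control on the log2 scale (log2 fold change -2.40) and the no.2 mean was 0.10 above it, a difference of -2.49 between no.1 and no.2. The difference did not pass limma's test (adjusted p = 0.322), and it rests on 1 array: the second no.1 array read 3.48, against 4.02 and 4.07 in no.2 and 3.93 and 3.96 in control.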

How the results depend on the processing

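The median difference of no.1 replicate 1 minus replicate 2, whose alternatives were chosen after the data were seen, lay between -2.74 and -2.17 over the 6 other settings. In them 33 to 35 of 39 genes were at least 2-fold lower, against 1.18% to 5.12% of all genes. Of these settings, quantile normalization and the value table hold nearly the same values. The number of genes called in no.1 against control was 6 (47.8%), the share of all genes called in either direction being given in brackets. It became 3 with quantile normalization and 3 with the value table (47.6% each), and 3 with no filter on dim probes (54.5%). It was 10 scaled to the median probe (47.1%) and 12 among genes above background on all 6 arrays (54.7%). With the control arrays averaged it was 2 (21.0%), and with spike-ins 8, of them 7 higher (84.1%). With the replicate block it was 13, against 6 (45.8%), and 2, against 1, in no.2 against control (26.3%). The labels give only replicate numbers, and deviations of same-numbered arrays correlated at 0.165, -0.035 and -0.017, so the numbers were not taken as pairs. In no.2 against control the count was 2 with normexp (34.5% of all genes) and 6 with spike-ins (67.5%). It was 9 with only the 2 groups (25.6%) and 0 with the control arrays averaged (5.4%). The median in no.1 against control was 0.50 with spike-ins, where all genes had 1.82. In no.2 against control it was 0.33 with normexp, 0.19 with quantile normalization and with the value table, 0.27 scaled to the median probe and 1.24 with spike-ins, where all genes had 1.18. Leaving out each array gave 0 to 19 genes called in no.1 against no.2 (medians -2.60 to -0.13), 2 to 33 in no.1 against control (medians -2.92 to 0.010) and 0 to 9 in no.2 against control (medians -0.29 to 0.11). Reversed were Irgm1 (1.36) and Ifit2 (1.47) in no.1 against control with spike-ins, and Cmpk2 there, between -2.47 and 0.99 as the arrays were left out (0.99 without no.1 replicate 1). The causes of these shifts were not tested. Of the 1620 alternative values of the 30 genes named by rule, 1398 kept their direction and side of the threshold without moving further than the spread. With no filter, 8296 of 45616 genes were called in no.1 against no.2, 0 of them in the set. All arrays lay on 1 slide, so the slide as a block was not run. Arrays of 2 per group, dim probes and normalization to each array limit what these values can show.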

Other observations

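Outside every list, Cxcl9, a chemokine gene known as a target of interferon gamma, was not well above background on no.1 replicate 1 and was so on the other 5 arrays, at log2 levels of -0.31 on the second no.1 array, -0.17 and 2.27 in no.2, and 0.61 and 0.71 in control. Acod1, which makes the antimicrobial metabolite itaconate, read -4.20 and -0.52 in no.1, -0.50 and -0.27 in no.2, and 1.60 and 1.46 in control. Apod, a secreted lipid-binding protein gene, read -1.33 and 2.08 in no.1, 3.03 and 6.26 in no.2, and 6.52 and 6.63 in control. These 3 were chosen after their values were seen and were not tested.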
